A study of Mus musculus with 11 samples.

Results

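The RNA levels of the core protein components of the spliceosomal small nuclear ribonucleoprotein particles (snRNPs) were examined in mouse embryonic stem cells (ESCs) transfected with siRNAs against CMTR1. CMTR1 is the cap methyltransferase that methylates the ribose of the first transcribed nucleotide of RNA polymerase II transcripts. Genes were selected by name alone, as protein-coding genes whose symbol begins with Snrp, Snrnp, Lsm, Sf3a, Sf3b or Prpf and goes on with a letter or a digit, with Snrpn left out. Of the 54838 genes counted, 54 met this rule. They comprise 7 genes of the Sm ring, 6 of the U1 particle, 11 of U2, 8 of the U4/U6 and U5 particles and their tri-snRNP, 8 of the LSm rings, 2 of U7 and 3 of U11. A further 8 encode splicing factors or RNA-binding proteins that are not snRNP subunits. The remaining gene, Lsmem1, shares only the letters of the name, since it encodes a membrane protein and not an LSm protein, and it is described apart from the others.

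RNA was collected 36 h after transfection of cells of the E14 line, grown with LIF on gelatin. The control cells had received a scramble siRNA (3 libraries), and the others CMTR1 siRNA 1 or CMTR1 siRNA 2 (4 libraries each), so that all 11 libraries came from transfected cells. Total RNA was depleted of ribosomal RNA before directional libraries were made. The study's methods call the replicates biological, but neither they nor the labels say which libraries came from separate cultures, and p-values therefore describe the spread between these libraries.

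Library depth was between 6738478 and 8382318 reads in genes. Levels are given as CPM, counts scaled to the total of each library. Differences were assessed by the quasi-likelihood test of edgeR on 16073 genes with more than 1 CPM in at least 4 libraries, and a gene passed at a false discovery rate (FDR) of at most 0.05 over all of them. All 54 genes were among those tested. Cmtr1 itself was at 17.9 to 21.7 CPM in the control libraries, 16.2 to 21.3 with siRNA 1 and 15.6 to 19.5 with siRNA 2. Its RNA level did not pass the test with siRNA 1 (log2 fold change −0.09, SE 0.11, FDR 0.743) or siRNA 2 (−0.25, SE 0.11, FDR 0.144). The names siRNA 1 and siRNA 2 are therefore used below for the libraries so labelled, without a measured loss of the target RNA. All 10 markers of ESCs were present, with a summed level of 2533 to 2638 CPM in control, 2194 to 2392 with siRNA 1 and 2295 to 2450 with siRNA 2. Of these, 6 fell with siRNA 1 and 4 with siRNA 2, and 0 rose. Over all genes tested 4.67% and 9.72% passed in either direction. The log2 fold changes with siRNA 1 and siRNA 2 were −0.57 and −0.54 for Nanog and −0.40 and −0.61 for Klf4. They were −0.34 and −0.55 for Esrrb and −0.32 and −0.31 for Zfp42. Pou5f1 (−0.16) and Dppa5a (−0.25) passed with siRNA 1 only. The 8 fibroblast markers, none of them at 0 in all libraries, summed to 39.2 to 48.6, 38.1 to 51.6 and 49.2 to 55.1 CPM. Of these, 6 were tested, and 0 passed with siRNA 1 (1 had an unadjusted p under 0.05, and DESeq2 and exactTest also gave 0). With siRNA 2, Col1a1 rose by 0.75 and Dcn by 1.13 on the log2 scale, while Col3a1 fell by 1.42 (FDR 6.4e-05, 0.0021 and 0.018 in edgeR's test), and DESeq2 called 1 of them. The part of these marker levels in the values below was not tested.

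Each spliceosomal snRNP is built from a small nuclear RNA, a ring of 7 Sm proteins that closes around it, and proteins particular to the particle. U1 pairs with the 5′ splice site and U2 with the branch point, and the U4/U6.U5 tri-snRNP brings in the catalytic parts. U6 carries a ring of LSm proteins in place of the Sm ring. U11 and U12 serve the rare minor introns, and U7, whose ring holds LSm10 and LSm11, cuts the 3′ ends of histone transcripts. The Sm and LSm rings hold each subunit once, so the RNA levels of ring partners can be set beside each other.

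Because CMTR1 acts on the first transcribed base, the bases around the annotated starts of several genes are shown. They were taken from RefSeq (GRCm38.p6) and are written 5′ to 3′ on the strand of the gene. The lower-case letters are the 25 bases before the start, and the capitals are the first 5 bases of the transcript, the first of which would carry the methyl group. The Sm genes Snrpd2, Snrpd3, Snrpe, Snrpf and Snrpg represent one ring. Lsm14b is shown because it was the single gene that passed the test, and Lsm14a because it is its paralog.
Snrpd2, chr7:19149813-19149842, plus strand: cccgcccttctcgccctgtacgccaAAGGC
Snrpd3, chr10:75518017-75518046, plus strand: cattctgggagcgcgtggtattcgtGAGAG
Snrpe, chr1:133610276-133610305, minus strand: accactgcacttccgtttccgggtcTTGCT
Snrpf, chr10:93589654-93589683, minus strand: tgaggtgaaaggtcaggccgcttttGTCGG
Snrpg, chr6:86371515-86371544, plus strand: ctgccttgcgcgcgtttctgagcctGCTCA
Lsm14b, chr2:180024962-180024991, plus strand: tgcggcggcgctcctcccccgctccCTTCA
Lsm14a, chr7:34389701-34389730, minus strand: aagcacgccgcctcgccctcccggcATGCC
The annotated first base is thus A, G, T, G and G in the Sm genes, C in Lsm14b and A in Lsm14a. RefSeq promoters were at hand for 43 of the 53 genes other than Lsmem1, as 50 promoters in all. The first base was G in 27 of these 50 (54%), T in 10 (20%), A in 8 (16%) and C in 5 (10%). Over all 32851 promoters of the table G made up 35.6%, T 13.7%, A 34.4% and C 16.3%. None of the 50 began with a C followed by 4 bases that are each C or T, the start typical of ribosomal protein genes, as against 2.51% of all promoters, with only the transcribed strand searched. Annotated starts were not measured in these libraries.

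Control levels were compared between genes as CPM per kilobase of the principal transcript. Across the 54 genes they ran from 1.16 for Lsmem1 to 204.4 for Snrnp70, the U1-70K protein, with a median of 52.2. In the Sm ring, Snrpb stood highest at 186 and Snrpd3 lowest at 32.4 CPM per kb, a 5.73-fold range between partners of one ring. By the principal transcript the order was Snrpb, Snrpe, Snrpd1, Snrpd2, Snrpg, Snrpf and Snrpd3. Only Snrpd1 and Snrpd2 were neighbours in it whose control libraries overlapped, with 81.1 to 84.2 and 81.4 to 85.6 CPM per kb. Per kb of all annotated exons merged the order was Snrpb (109), Snrpf (55.9), Snrpe (53.6), Snrpg (46.4), Snrpd2 (44.9), Snrpd1 (34.7) and Snrpd3 (28.55). The order between the highest and the lowest gene thus depends on the length used, and the counts of Snrpf are uncertain, as given below. In the LSm genes the level ran from 108 CPM per kb for Lsm6 to 10.7 for Lsm1, the subunit of the cytoplasmic ring that takes part in mRNA decay. Lsm8, which replaces LSm1 in the nuclear U6 ring, was at 34.9 CPM per kb, and its control libraries overlapped those of Lsm5, its neighbour in level. The control libraries of Lsm4 and Lsm2 overlapped too, as did those of Lsm3 and Lsm7. Both ends of this LSm range depend on the length used. Per kb of all annotated exons merged, Lsm4 was highest (77.04) and Lsm6 was at 14.39. Lsm8 was then lowest (6.715), below Lsm1 (9.19), so the order of these partners was reversed.

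Among the particles, the median control level was 82.8 CPM per kb for the Sm ring, 67.4 for U1, 54.7 for U2, 46.1 for U4/U6 and U5 and 65.3 for the LSm genes. The medians of the 3 U11 genes and of the U7 pair were lower, at 22.7 and 5.76. Lsm10 and Lsm11 were at 8.30 and 3.22 CPM per kb. Of the U11 genes, Snrnp35 was at 5.84 and Snrnp25 at 22.7, while Snrnp48 was at 68.0, above the U1 median. Prpf8, the large U5 protein at the heart of the spliceosome, was at 162 CPM per kb and had the most reads of all 54 genes, with at least 7729 in every library. The length used matters for single ranks, and for the order within the Sm and LSm rings. Over all annotated exons merged, which include retained introns, Snrnp70 was at 46.6 CPM per kb and ranked 12 in place of 1, and Prpf8 ranked first, while Lsmem1 was lowest with either length.

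**Figure D1:**
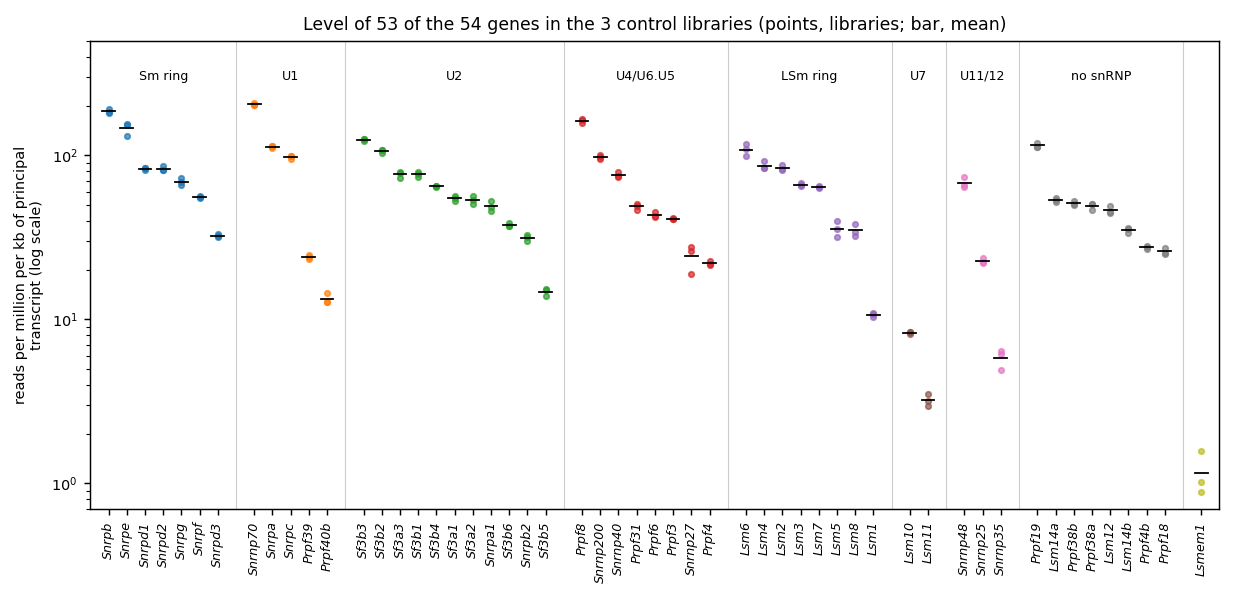
Level of 53 of the 54 genes in the 3 control libraries (vertical axis, CPM per kb of the principal transcript, log scale), grouped by particle. Points are libraries and bars their mean. Snrnp70, Snrpb and Prpf8 stand highest at 204.4, 186 and 162, and the U7 pair Lsm10 and Lsm11, Snrnp35 and Lsmem1 lie lowest, at 8.30 or under.

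The comparison of the 3 siRNA groups asks whether the RNA of these genes differs between them. Without a measured loss of Cmtr1 RNA in these libraries, dependence on CMTR1 was not tested. None of the 45 genes of snRNPs and LSm rings passed edgeR's test with either siRNA, and 2 and 3 of them had an unadjusted p under 0.05. DESeq2 and edgeR's exactTest also gave 0 of the 45, while TMM scaling gave 1 with siRNA 2 (Lsm4). Among all 54 genes Lsm14b alone passed. With siRNA 1 the count was 1 of 54, while 4.67% of all genes tested passed, and 4 of the 54 had an unadjusted p under 0.05. With siRNA 2 it was 0 of 54, against 9.72% of all genes, again with 4 below an unadjusted p of 0.05. Between the siRNAs 1 of 54 passed, against 7.44%, and in the test of all 3 groups together 1 of 54, against 13.7%. Lsm14b was the gene in each case.

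The median log2 fold change of the 54 genes was 0.0025 with siRNA 1 and 0.013 with siRNA 2, and 0.024 and 0.029 over all genes tested. Both medians of the 54 genes were below 0 with TMM scaling (−0.017 and −0.012) and with DESeq2 (−0.021 and −0.016). Those over all genes tested were lower too, at 0.0042 and 0.0040 with TMM scaling and 0.00048 and 4.0e-05 with DESeq2. With siRNA 1, 29 of the 54 genes lay above 0 and 25 below, and with siRNA 2, 32 above and 22 below. The median size of a change in either direction was 0.031 and 0.050, as against 0.11 and 0.13 over all genes. The members were also measured more precisely than the typical gene, with a median SE of 0.060 with either siRNA against 0.11 for all genes. For 44 of the 54 genes the 95% interval (estimate plus or minus the t quantile times SE) lay within a 1.2-fold difference with siRNA 1, and for 44 with siRNA 2. Over all genes this was so for 36.0% and 33.5%. The intervals of 8 genes reached past 1.2-fold with both siRNAs, namely Snrpa1, Snrnp27, Lsm10, Lsm11, Snrnp25, Snrnp35, Prpf18 and Lsmem1. Lsm7 and Lsm14b were added to these with siRNA 1, and Lsm4 and Lsm5 with siRNA 2.

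**Figure D2:**
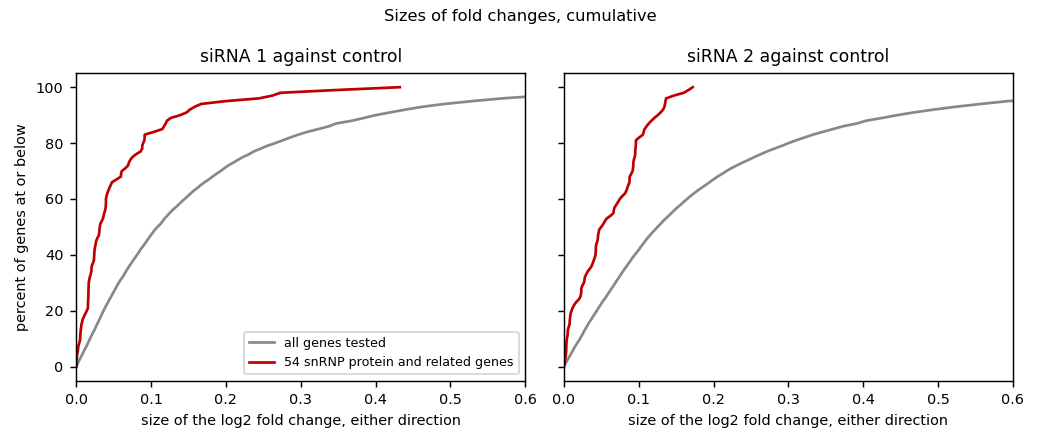
Cumulative distribution of the size of the log2 fold change (horizontal axis, either direction) for the 54 genes (red) and the 16073 genes tested (grey), with the percent of genes at or below each size on the vertical axis. The medians are 0.031 and 0.11 with siRNA 1 and 0.050 and 0.13 with siRNA 2.

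Libraries of a siRNA and of control did not overlap at 3 of the 54 genes with siRNA 1, all of them higher (Lsm14b, Snrpd2 and Sf3b6), as against 15.5% of all genes. With siRNA 2 this was so for 5 genes, against 19.4%, with Lsm3 higher and Snrnp70, Lsm4, Snrnp25 and Prpf18 lower. No gene was separate from control on the same side with both siRNAs, against 6.23% of all genes. Between the siRNAs, Lsm11 was higher and Snrnp25 and Lsm14b lower with siRNA 2 without overlap, against 11.8%.

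**Figure D3:**
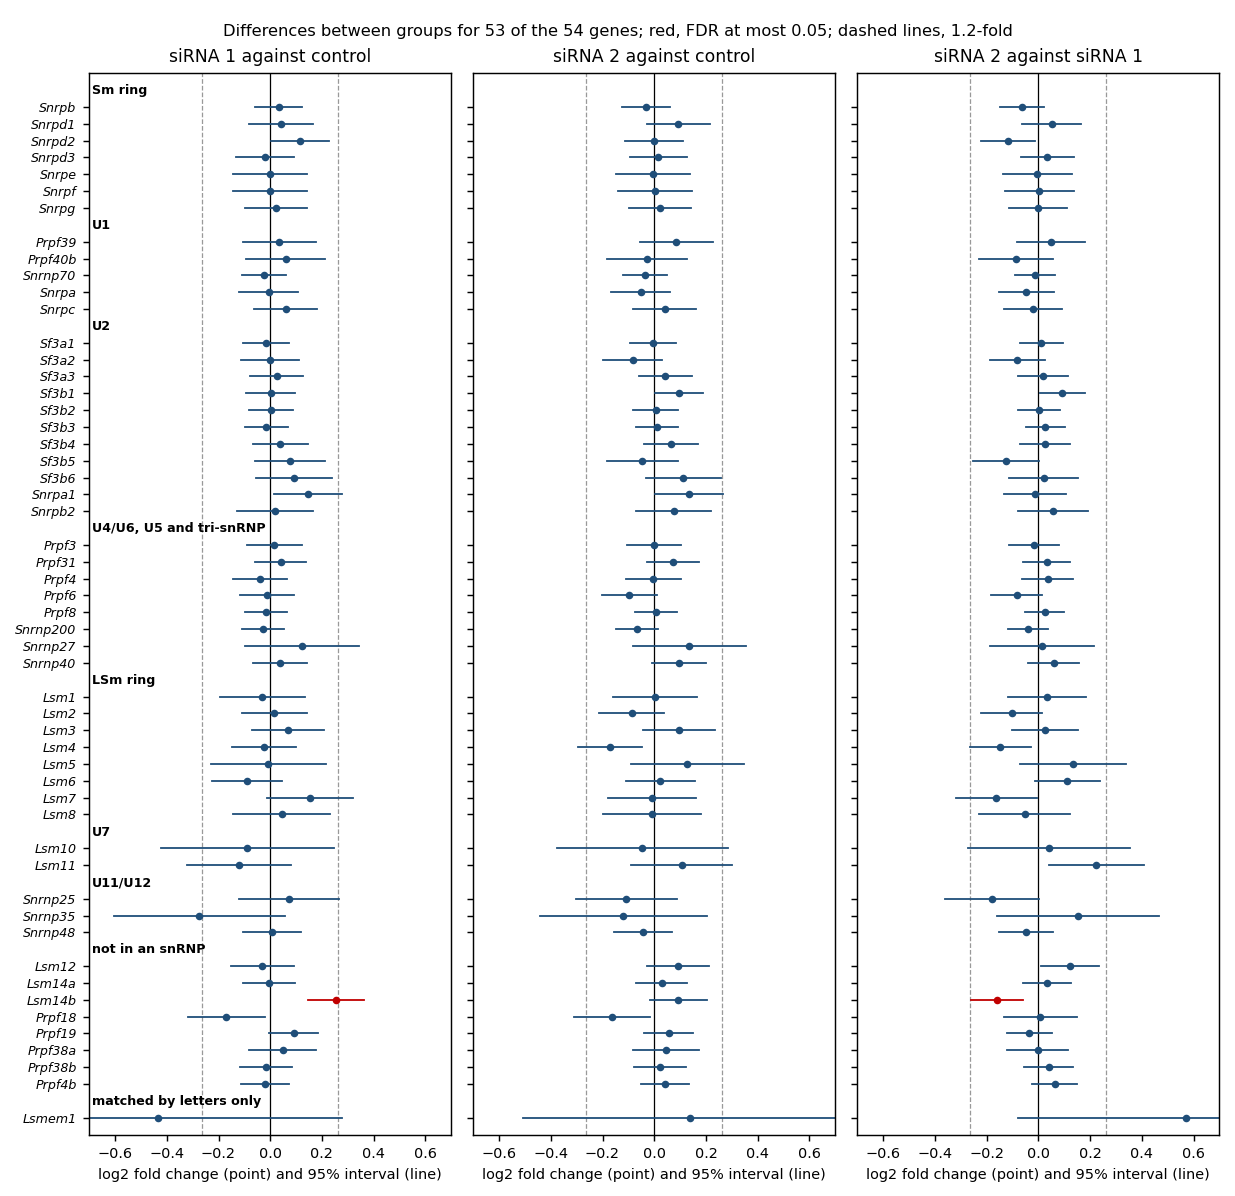
Log2 fold changes (points) with 95% intervals (lines) of 53 of the 54 genes, by particle, for siRNA 1 against control, siRNA 2 against control and siRNA 2 against siRNA 1. Lsm14b (red) is the gene that passed the test, at 0.25 with siRNA 1 and −0.16 between the siRNAs. Dashed lines mark a 1.2-fold difference, and the intervals of Lsmem1 are cut at the edge of the panels.

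The Sm ring genes differed little between groups. Summed over the 7 genes, the level was 679 to 713 CPM in control, 703 to 736 with siRNA 1 and 661 to 718 with siRNA 2, so that the groups overlapped. Snrpe, Snrpf and Snrpg encode Sm E, F and G, which join as a trio before the ring closes. Snrpe was at 76.6, 78.3 and 65.8 CPM in control, 68.7, 70.4, 79.6 and 75.8 with siRNA 1, as compared with 79.7, 70.03, 63.5 and 80.8 with siRNA 2. Its libraries spread as widely within groups as between them, with log2 fold changes of 0.00037 (SE 0.071, FDR 0.999) and −0.0036 (SE 0.071, FDR 0.986). Snrpf was at 47.2, 49.0 and 48.2 CPM in control, 49.0, 50.7, 48.6 and 44.1 with siRNA 1, as compared with 50.0, 52.1, 48.9 and 42.0 with siRNA 2. The log2 fold changes were −0.00043 (FDR 0.999) and 0.0032 (FDR 0.988). Of the words of 75 nt in its exons, 85.4% also occur in other annotated genes, among them Ccdc38 and 4933408J17Rik, which overlap it, so its counts are uncertain. The next highest shares were 38.6% (Sf3b4), 15.5% (Lsm5), 15.1% (Prpf31), 14% (Sf3a2), 12.5% (Snrpa), 11.9% (Lsm7) and 9.78% (Snrpg). Counts of these genes hold some of the same uncertainty. Snrpg gave 0.024 (SE 0.060, FDR 0.896) and 0.022 (SE 0.059, FDR 0.876).

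Snrpd1 and Snrpd2 encode Sm D1 and D2, which form a pair in ring assembly. Snrpd2 was at 116, 122 and 116 CPM in control and at 129, 131, 124 and 127 with siRNA 1. The lowest siRNA 1 library thus lay above the highest control, yet the difference of 0.11 (SE 0.056, 95% interval 0.0016 to 0.23) did not pass the test (FDR 0.289). With siRNA 2 Snrpd2 was at 121, 129, 105 and 116 CPM, on both sides of control (−0.0015, SE 0.056, FDR 0.993). Between the siRNAs its difference was −0.12 (SE 0.052, FDR 0.178). Snrpd1 had 0.042 (SE 0.061, FDR 0.798) and 0.093 (SE 0.061, FDR 0.374). Snrpb and Snrpd3, which encode the partners Sm B and D3, had 0.032 (SE 0.045, FDR 0.792) and −0.020 (SE 0.055, FDR 0.904) with siRNA 1, and −0.032 (SE 0.045, FDR 0.735) and 0.015 (SE 0.054, FDR 0.911) with siRNA 2. For all 7 Sm genes the intervals lay within 1.2-fold in every comparison.

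**Figure D4:**
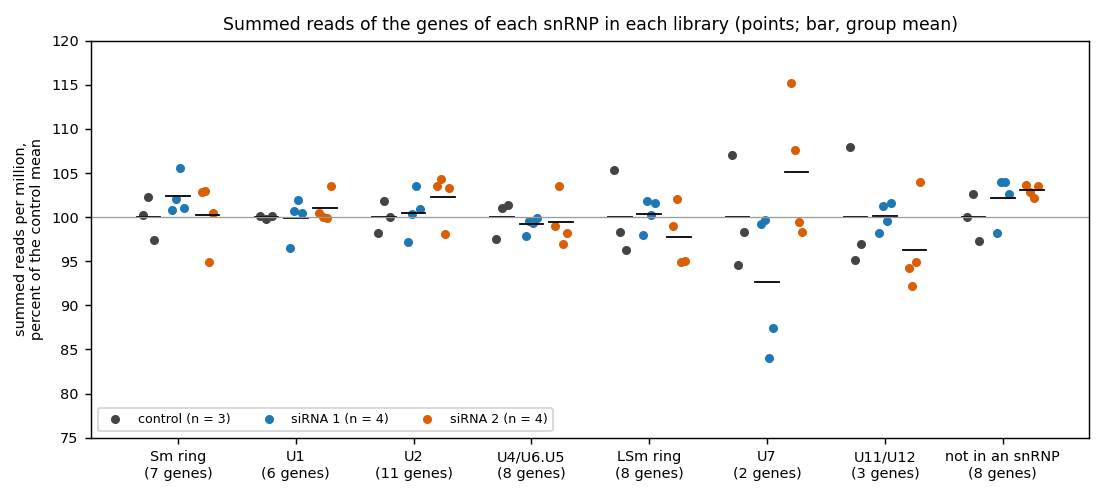
Summed CPM of the genes of each particle in each library (points), as a percent of the control mean, with the group mean as a bar. Control (n = 3), siRNA 1 (n = 4) and siRNA 2 (n = 4) overlap in every particle, and the U7 pair spreads most.

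The 6 genes of U1 summed to 988 to 992 CPM in control, 957 to 1010 with siRNA 1 and 990 to 1026 with siRNA 2. Snrnp70, which encodes the U1-70K protein that binds the first stem of U1 RNA, was at 351, 351 and 362 CPM in control, 344, 356, 353 and 341 with siRNA 1, as compared with 346, 346, 350.1 and 341 with siRNA 2. All siRNA 2 libraries lay below all control libraries, by a margin smaller than the spread within either group. The log2 fold changes were −0.024 (SE 0.042, FDR 0.837) and −0.037 (SE 0.042, FDR 0.651). Snrpa and Snrpc, which encode U1A and U1C, had −0.0061 and 0.060 with siRNA 1 and −0.053 and 0.040 with siRNA 2. The U1-associated genes Prpf39 and Prpf40b had 0.035 and 0.060 with siRNA 1, and 0.085 and −0.027 with siRNA 2. The intervals of the U1 genes were within 1.2-fold in each comparison.

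The 11 genes of U2 comprise Snrpa1 and Snrpb2 (U2A′ and U2B″) and the SF3a and SF3b complexes, which clamp U2 on the branch point. They summed to 2221 to 2302 CPM in control, 2198 to 2341 with siRNA 1 and 2218 to 2358 with siRNA 2. Sf3b1, which encodes the large scaffold of SF3b, was at 477, 490 and 458 CPM in control and 442, 469, 506 and 486 with siRNA 1. With siRNA 2 it was at 511, 490.0, 485 and 543 CPM, of which 3 libraries lay at or above the highest control and the lowest lay within the control range. Its log2 fold changes were 0.0022 (SE 0.047, FDR 0.989) and 0.095 (SE 0.047, 95% interval 0.0014 to 0.19, FDR 0.206), and the difference between the siRNAs was 0.093 (SE 0.043, FDR 0.196). Snrpa1 had the largest estimates of U2 with both siRNAs, 0.15 (FDR 0.226) and 0.13 (FDR 0.200), with intervals up to 0.28 and 0.26. Sf3b6, which encodes the p14 protein at the branch point, had 0.091 and 0.11. The remaining 8 U2 genes lay between −0.017 and 0.077 with siRNA 1 and between −0.083 and 0.076 with siRNA 2.

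The 8 genes of U4/U6, U5 and the tri-snRNP summed to 2430 to 2526 CPM in control, 2439 to 2490 with siRNA 1 and 2415 to 2578 with siRNA 2. Prpf8 was at 1135, 1194 and 1202 CPM in control, 1147, 1162, 1162 and 1183 with siRNA 1, as compared with 1184, 1239, 1151 and 1157 with siRNA 2. The groups overlapped, with log2 fold changes of −0.017 (SE 0.040, FDR 0.892) and 0.0075 (SE 0.040, FDR 0.941) and intervals of −0.098 to 0.065 and −0.074 to 0.089. Snrnp200, which encodes the helicase that unwinds U4 from U6, was at 642, 658 and 677 CPM in control, 648, 644, 654 and 640 with siRNA 1, as compared with 617, 654, 622 and 623 with siRNA 2. Here 3 of the 4 siRNA 2 libraries were below every control library and the other lay within the control range, and the log2 fold changes were −0.027 (SE 0.041, FDR 0.804) and −0.067 (SE 0.041, FDR 0.328). Prpf3, Prpf4 and Prpf31, of the U4/U6 particle, had 0.016, −0.040 and 0.040 with siRNA 1 and −0.00013, −0.0032 and 0.071 with siRNA 2. Prpf6 and Snrnp40, both of U5, had −0.012 and 0.037 with siRNA 1 and −0.096 and 0.096 with siRNA 2. Snrnp27 had the widest interval of the 8, up to 0.34 with siRNA 1 and 0.35 with siRNA 2.

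The 8 LSm ring genes summed to 341 to 373 CPM in control, 347 to 361 with siRNA 1 and 336 to 362 with siRNA 2. The gene with the largest fall in estimate of all 54 with siRNA 2 was Lsm4 (chr8:70673248-70678752, plus strand), a subunit of both the nuclear and the cytoplasmic ring. It was at 84.9, 77.8 and 77.1 CPM in control, 85.5, 78.3, 74.4 and 76.6 with siRNA 1, as compared with 69.3, 76.95, 70.4 and 67.1 with siRNA 2. The siRNA 2 libraries all lay below the control libraries, while those of siRNA 1 lay among them. The log2 fold change with siRNA 2 was −0.17 (SE 0.062, 95% interval −0.30 to −0.047) at an FDR of 0.0687, and with siRNA 1 it was −0.026 (SE 0.061, FDR 0.890). It passed under TMM scaling (−0.20, FDR 0.0338), and also without siRNA 2 replicate 2 (−0.22, FDR 0.0290). Lsm7 had 0.15 with siRNA 1 (FDR 0.350) and −0.0081 with siRNA 2 (FDR 0.971). Of the other LSm genes, Lsm1, Lsm2, Lsm3, Lsm5, Lsm6 and Lsm8 lay between −0.088 and 0.069 with siRNA 1 and between −0.088 and 0.13 with siRNA 2. Lsm1 and Lsm8, which set the cytoplasmic ring apart from the nuclear one, had −0.031 and 0.045 with siRNA 1 and 0.0024 and −0.0088 with siRNA 2.

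The U7 genes were measured less precisely. Lsm11, which encodes the subunit that recruits the histone processing machinery, was at 22.7, 19.2 and 20.5 CPM in control, 20.5, 20.7, 18.4 and 17.1 with siRNA 1, as compared with 25.1, 22.0, 20.9 and 21.7 with siRNA 2. Both siRNAs overlapped control, while the siRNA 2 libraries all lay above those of siRNA 1. The log2 fold changes were −0.12 (SE 0.10, FDR 0.599) and 0.11 (SE 0.096, FDR 0.549), and the difference between the siRNAs was 0.22 (SE 0.091, 95% interval 0.040 to 0.41, FDR 0.131). Lsm10, with at least 36 reads in a library, was at 6.73, 6.78 and 6.60 CPM in control, 6.83, 6.73, 4.76 and 6.95 with siRNA 1, as compared with 6.53, 7.64, 6.47 and 5.31 with siRNA 2. Its log2 fold changes were −0.088 (SE 0.17, FDR 0.851) and −0.046 (SE 0.16, FDR 0.909), with intervals of −0.42 to 0.25 and −0.38 to 0.28, so differences up to 1.2-fold were not detectable at this depth.

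The U11 genes belong to the minor spliceosome. Snrnp35, which is the counterpart of U1-70K in that particle, was at 7.11, 6.91 and 5.52 CPM in control, 5.49, 5.86, 5.15 and 5.08 with siRNA 1, as compared with 5.54, 5.73, 6.20 and 6.54 with siRNA 2, from at least 37 reads. A single siRNA 1 library reached into the control range, and the log2 fold change of −0.27 had an SE of 0.16 and an interval of −0.60 to 0.057 (FDR 0.414). With siRNA 2 it was −0.12 (SE 0.16, FDR 0.712). Snrnp25 was at 19.6, 18.3 and 18.2 CPM in control, 18.0, 20.7, 20.5 and 19.1 with siRNA 1, as compared with 16.9, 17.9, 17.5 and 16.9 with siRNA 2. It gave the lowest estimate of the 54 genes between the siRNAs (−0.18, SE 0.090, FDR 0.249), without overlap of the libraries. Against control the values were 0.071 (SE 0.096, FDR 0.778) and −0.11 (SE 0.097, FDR 0.546). Snrnp48 had 0.0053 and −0.043.

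**Figure D5:**
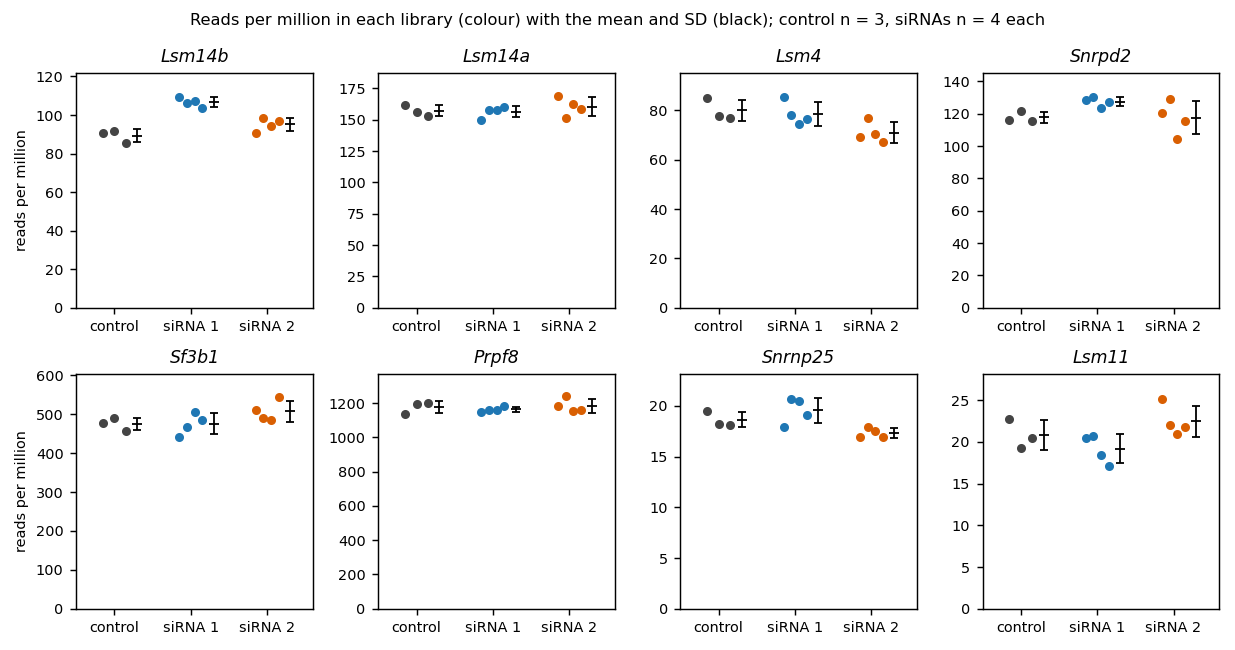
CPM (vertical axis, from 0) of 8 genes in each library, with the mean and SD in black, for control (n = 3), siRNA 1 (n = 4) and siRNA 2 (n = 4). Lsm14b is higher with siRNA 1 (107 against 89.3 CPM), while Lsm14a, Sf3b1 and Prpf8 overlap control in both groups. Lsm4 and Snrnp25 lie below control with siRNA 2.

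The gene that passed the test, Lsm14b (ENSMUSG00000039108, chr2:180024987-180035465, plus strand), is not an snRNP component. It encodes an LSm-domain protein of cytoplasmic messenger RNPs, a relative of the P-body protein LSm14A. It was at 90.8, 91.8 and 85.3 CPM in control, 109, 106, 107 and 103 with siRNA 1, as compared with 90.6, 98.7, 94.5 and 96.9 with siRNA 2. Every siRNA 1 library lay above all control and all siRNA 2 libraries, while siRNA 2 and control overlapped. Means were 89.3 ± 3.47 (SD, n = 3), 107 ± 2.48 (n = 4) and 95.2 ± 3.48 (n = 4). Lsm14b rose with siRNA 1, by 0.25 on the log2 scale or 1.19-fold (SE 0.054, 95% interval 0.14 to 0.36, FDR 0.00239 in edgeR's test). Over the alternatives this value ran from 0.22 to 0.27, with FDRs of 0.00028 to 0.036. With siRNA 2 the difference from control was 0.093 (SE 0.055, FDR 0.313). The siRNA 2 libraries were lower than those of siRNA 1 by a log2 difference of −0.16 (SE 0.050, 95% interval −0.26 to −0.061, FDR 0.0372 in edgeR's test). That call was lost with no filter beyond 1 count, or without any one of siRNA 1 replicates 1, 2 and 3 and siRNA 2 replicates 1, 3 and 4, with FDRs of 0.027 to 0.14 over the alternatives. Exact two-sided permutation tests on CPM gave p = 0.0286 for siRNA 1 against control, p = 0.114 for siRNA 2 against control and p = 0.0286 between the siRNAs, where 0.0286 is the smallest value these group sizes allow. Lsm14b was picked by edgeR's test on the same counts, and groups without overlap always give that smallest value. The permutation values of 0.0286 therefore add no separate support. No other gene shares 75-nt words with the exons of Lsm14b.

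The paralog Lsm14a (chr7:34344646-34393315, minus strand), a P-body component that represses translation, was at 162, 156 and 153 CPM in control, 150.0, 158, 158 and 161 with siRNA 1, as compared with 169, 151, 163 and 159 with siRNA 2. Its groups overlapped, with log2 fold changes of −0.0052 (SE 0.050, FDR 0.974) and 0.028 (SE 0.049, FDR 0.791). Lsm12, another LSm-domain protein outside the rings, had −0.031 and 0.092. Of the splicing factors, Prpf18, which acts in the second catalytic step, had −0.17 with siRNA 1 (95% interval −0.32 to −0.022, FDR 0.208) and −0.16 with siRNA 2 (−0.31 to −0.015, FDR 0.163). Its siRNA 2 libraries all lay below control, at 35.4 to 38.0 CPM against 39.6 to 43.2, and its siRNA 1 libraries, at 33.8 to 39.9, overlapped control. Prpf19, the ubiquitin ligase of the complex that bears its name, had 0.091 and 0.056. The kinase gene Prpf4b and the genes of Prpf38a and Prpf38b, both of the B complex, lay between −0.020 and 0.048 with siRNA 1 and between 0.023 and 0.045 with siRNA 2.

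Lsmem1, matched by its letters alone, was the lowest of the 54 genes, at 1.90, 1.23 and 1.077 CPM in control, 1.34, 1.00, 0.792 and 1.07 with siRNA 1, as compared with 0.994, 1.67, 2.02 and 1.48 with siRNA 2. The groups overlapped, and single libraries held as few as 6 reads. It gave the lowest estimate with siRNA 1 (−0.43, SE 0.35, FDR 0.588) and the highest with siRNA 2 (0.14, SE 0.32, FDR 0.850) and between the siRNAs (0.57, SE 0.32, FDR 0.315). Without it, the median of the 53 genes left was 0.0028 with siRNA 1 and 0.011 with siRNA 2.

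Other genes of the same machinery, taken from lists of snRNP-related genes, were set beside the 54. Over all genes tested, 4.67% passed with siRNA 1, 9.72% with siRNA 2 and 7.44% between the siRNAs. None of 14 other snRNP proteins, such as the U5 GTPase Eftud2, passed with siRNA 1, siRNA 2 or between the siRNAs, with DESeq2 and exactTest also at 0, and 1 had an unadjusted p under 0.05 in each comparison. Their medians were −0.029 and 0.013. Of 18 genes for the assembly and transport of snRNPs, 0 passed with siRNA 1 (2 had an unadjusted p under 0.05). With siRNA 2, 2 of the 18 passed, both of them higher, which is near the share over all genes tested. Ddx20, the helicase Gemin3 of the SMN complex that loads the Sm ring, rose by 0.17 (SE 0.058, FDR 0.0472) with siRNA 2 and was at −0.022 with siRNA 1 (FDR 0.903), and its difference between the siRNAs passed (0.20, SE 0.054, FDR 0.0175). Usb1, which trims the 3′ end of U6 RNA, rose by 0.29 (SE 0.096, FDR 0.0464) with siRNA 2 and was at 0.22 with siRNA 1 (FDR 0.238). Of 19 genes of the Prp19 complex and of spliceosomal helicases, 0 passed with siRNA 1 (2 had an unadjusted p under 0.05). DESeq2 and exactTest gave 0 of both lists with siRNA 1 as well. Aqr, the intron-binding helicase, rose by 0.15 (SE 0.045, FDR 0.0285) with siRNA 2, and Xab2 was lower with siRNA 2 than with siRNA 1 (−0.17, SE 0.051, FDR 0.0341). With DESeq2 or TMM scaling none of these 3 genes passed with siRNA 2 (0 of 18 and 0 of 19), while exactTest gave counts of 2 and 1. The medians of the assembly list were −0.022 and 0.050 and those of the Prp19 and helicase list −0.0059 and 0.014, beside 0.024 and 0.029 over all genes tested.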

How the data were processed

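The authors deposited counts of reads per Ensembl gene for 11 RNA-seq libraries of mouse ESCs. Adaptors had been removed (cutadapt) before alignment by STAR to GRCm38, and PCR duplicates were taken out with Picard. The counting tool is named as featureCounts, although 10 of the 11 files end in tally lines laid out as HTSeq-count writes them. The strand setting of the counting is not given in the sources used here, and reads of overlapping genes are therefore uncertain. Symbols, biotypes and lengths came from GENCODE M21, which held 54809 of the 54838 identifiers. Libraries were scaled by total counts, as the methods state library size, and fitted in one model of 3 groups with edgeR 4.0.16 (R 4.3.3), whose quasi-likelihood tests gave Benjamini-Hochberg FDRs over 16073 genes. The genes, lists and tests were chosen with earlier results of these data known. Values are given in full for genes that passed a test, that were separate from control with both siRNAs, that had the largest rise or fall of a comparison or the highest or lowest level, and for the Sm genes, Snrnp70, Sf3b1, Prpf8, Snrnp200, Lsm10, Lsm11 and Snrnp35. Lsm14a, Snrnp25, Prpf18 and Snrpa1 were given more values after theirs were seen. Alternatives were other scalings, filters and tools (DESeq2 1.42.0), a replicate block and each library left out. A single gene of the 54 is not reported here by name and enters counts, sums and medians only. The code was tested on simulated data. Tables and figures were made with Python 3.11.15.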

Additional observations from a re-analysis of the deposited data

Results flagged for a closer look

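Lsm14b differed between the siRNAs in edgeR's test (log2 difference −0.16, FDR 0.0372): it was at 103 to 109 CPM in the siRNA 1 libraries and 90.6 to 98.7 in those of siRNA 2. Single libraries stood apart from the other 3 of their group by Dixon's test at 3 genes, out of 36 groups of 4 libraries examined, where chance gives about 1 in 20. Lsm10 was at 4.76 CPM in siRNA 1 replicate 3 and at 6.73 to 6.95 in the others. Snrpd1 was at 80.7 CPM in the same library and at 69.8 to 71.4 in the others. Snrnp200 was at 654 CPM in siRNA 2 replicate 2 and at 617 to 623 in the others. Groups of 3 were not examined.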

How the results depend on the processing

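The count of genes that passed with siRNA 1 was 1 under every alternative run. With siRNA 2 it rose from 0 to 1 (Lsm4) with TMM factors, and it was 0 to 1 with single libraries left out (1 without siRNA 2 replicate 2). Between the siRNAs it fell from 1 to 0 with no filter beyond 1 count, and was 0 to 1 with single libraries left out, being 0 without siRNA 1 replicate 1, 2 or 3 or siRNA 2 replicate 1 or 4. Without siRNA 2 replicate 3, Lsm14b was no longer past the test (−0.16) and Lsm12 was (0.17, FDR 0.0452). The test of 3 groups gave 2 with TMM factors and 1 to 2 with libraries left out (2 without siRNA 2 replicate 2). DESeq2, exactTest and the fit of 2 groups give no value for that test. The medians, all close to 0, changed sign under several alternatives. With siRNA 1 the median was −0.017 with TMM, −0.021 with DESeq2, −0.00039 without control replicate 3 and −0.0070 without siRNA 1 replicate 3. With siRNA 2 it was −0.012 with TMM and −0.016 with DESeq2, and between the siRNAs −0.0021 and −0.0049 without siRNA 2 replicate 1 or 2. The level of Snrnp70 and Lsmem1 per kb of merged exons, an alternative added after seeing the data, was 46.6 and 0.616. Of 1028 values of the 18 genes described in full, which include the levels of these 2 genes, 7 lost and 2 gained the call, none that had passed changed direction, and 68 that had not passed changed sign. With the replicate number as a block, the counts stayed 1, 0, 1 and 1 and the medians were 0.0031, 0.011 and 0.011. Deviations of same-numbered libraries correlated at a mean r of 0.011 (10 pairs, −0.078 to 0.0835). For libraries of other numbers it was −0.0036 (30 pairs, −0.104 to 0.101). No pairing was seen over all genes, but one limited to some genes could be missed this way. Depth limits Lsm10, Snrnp35 and Lsmem1 most. The causes of these shifts were not tested.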

Other observations

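Genes annotated as small nuclear RNAs gave values of their own, which were looked at after the counts of the protein genes were known. Of 42 genes of the biotype snRNA that were tested, 5 (11.9%) fell and 0 rose with siRNA 2. Of all 16073 genes tested, 571 fell and 991 rose with siRNA 2, and 9.72% passed in either direction. The share of all genes that fell was therefore smaller than 9.72%. With siRNA 1, 0 of the 42 passed edgeR's test (3 had an unadjusted p under 0.05, and DESeq2 and exactTest also gave 0). With siRNA 2, DESeq2 gave 4. Many of the 42 were near 1 CPM, and their median SE was 0.35 with siRNA 1 and 0.33 with siRNA 2, against 0.11 over all genes. Their 95% intervals lay within 1.2-fold for 5 of the 42 with siRNA 1 and for 0 with siRNA 2. Rnu12, the U12 snRNA of the minor spliceosome, was at 19.8, 16.9 and 16.4 CPM in control, 22.7, 18.3, 15.9 and 17.5 with siRNA 1, as compared with 15.5, 12.4, 14.8 and 12.6 with siRNA 2, a log2 fold change of −0.37 with siRNA 2 (SE 0.12, FDR 0.0398 in edgeR's test). Gm22973 was at 126.7, 109 and 99.3 CPM in control, 108, 106, 102 and 94.5 with siRNA 1, as compared with 97.3, 79.0, 84.7 and 75.5 with siRNA 2 (−0.41, SE 0.070, FDR 5.5e-05). The other genes that fell were Gm25813 (−0.87), Gm25360 (−0.29) and Gm25541 (−0.70), and Rnu11, the U11 snRNA, had −0.38 with siRNA 2 (FDR 0.359). Between the siRNAs 7 of the 42 passed, all lower with siRNA 2, and DESeq2 gave 4. Of all 16073 genes tested, 475 were lower and 721 higher with siRNA 2 in that comparison, and 7.44% passed in either direction. The share of all genes that were lower was therefore smaller than 7.44%.

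Of 134 snoRNA genes 18 fell and 0 rose with siRNA 2 (12 passed with DESeq2), and of 16 scaRNA genes 3 fell and 0 rose (2 with DESeq2). Of all 16073 genes tested, 571 fell and 991 rose with siRNA 2, and 9.72% passed in either direction. Here too the share of all genes that fell was smaller than 9.72%. With siRNA 1, 1 snoRNA gene rose (0 with DESeq2 or TMM scaling), and 0 scaRNA genes passed edgeR's test (1 had an unadjusted p under 0.05, and DESeq2 and exactTest gave 0). The summed level of the 42 snRNA genes was 401 to 469 CPM in control, 384 to 452 with siRNA 1 and 313 to 391 with siRNA 2, and that of the snoRNA genes 957 to 1146, 935 to 1079 and 747 to 928. Spliceosomal snRNAs have many near-identical copies, so single gene counts are uncertain, and short RNAs are captured incompletely by such libraries.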
